A study of Mus musculus with 18 samples.

Results

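Small-intestinal crypts labelled as lacking E2f1, E2f2 and E2f3 were compared with control crypts on 9 of the 18 arrays of a mouse microarray series. Of these 9 arrays, 5 had titles beginning E2f TKO and 4 were titled control. All genes that a probe set names singly were kept, 18193 in all, each read from its probe set with the highest mean signal over the 18 arrays. Every array holds total RNA of intestinal crypt from mice of 2 months, taken 2 days after deletion. By its labels the E2f TKO group lacks E2f1, E2f2 and E2f3. Ah-cre, an inducible Cre recombinase of the intestine that the Cyp1a1 promoter drives, is named in the labels as the means of deleting E2f alleles. The labels do not say whether all 3 genes were conditional or some were missing from birth. What the 2 days count from is therefore known only for the alleles that Ah-cre removed. The other arrays are 4 of Myc KO crypts, in which Myc was deleted with the same Cre, and 5 of E2f/Myc QKO crypts (QKO here), which lost Myc and E2f1 to E2f3. The labels give no alleles, strain, sex or inducer, and do not say whether control mice carried Ah-cre or were given the inducer. They call each array a crypt sample without naming the mouse, so p-values measure the spread between these samples. Crypts mix stem, dividing, secretory and other cells, and in such bulk RNA fewer cells of a type and less RNA per cell cannot be told apart.

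E2F1, E2F2 and E2F3 are transcription factors that pair with a DP protein and bind promoters of genes for DNA replication and the cell cycle. Proteins of the retinoblastoma family bound to them turn such promoters down, and cyclin-dependent kinases relieve this as cells enter S phase. Crypts are the dividing compartment of the intestinal epithelium, where stem cells at the base feed progenitors that mature as they move towards the villus.

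Array medians were 6.14 to 6.26 on the log2 scale. Without detection calls, signals near those medians cannot be separated from background. One unit on this scale is a 2-fold difference in signal. Epithelial markers were high in all 9 arrays, with Epcam at 13.83 to 14.18 and Vil1 at 12.51 to 13.23. Markers of other cells were mixed. Of 7 measured genes each, 5 endothelial, 4 smooth muscle and 3 neuron and glia genes were below the array median in all 9 arrays, among them Pecam1, Cdh5, Myh11 and Elavl4. Above it in all 9 were endothelial Kdr (6.73 to 7.30), the smooth muscle genes Mylk (10.59 to 11.05), Des (6.65 to 7.16) and Acta2 (6.55 to 7.04), and glial Sox10 (6.76 to 7.08). The arrays labelled E2f TKO 2 and 5 stood apart. Their Cyp1a1 signals were 5.05 and 4.91, where the other 16 arrays read 12.66 to 14.09. E2f3, one of the deleted genes, read 8.62, 8.73, 8.81 and 8.96 in control arrays 1 to 4 and 8.22, 9.35, 8.39, 8.08 and 9.10 in E2f TKO arrays 1 to 5. On this probe set the library labelled E2f TKO 2 and the library labelled E2f TKO 5 were thus above every control for E2f3, against their label. The other 3 were below every control. A dimmer E2f3 probe set read 6.83, 6.65, 6.68 and 6.83 in control and 6.61, 6.71, 6.70, 6.18 and 6.90 in E2f TKO arrays. There the array labelled 2 lay within the controls and the array labelled 5 just above them, so the E2f3 probe sets differ on this point. E2f1 (7.70 to 8.05 in control and 7.48 to 7.84 in E2f TKO arrays) and E2f2 (8.91 to 9.28 and 8.61 to 9.16) overlapped between the groups on the probe set of highest signal, and neither passed the test. Another E2f1 probe set, dimmer on average, read 7.27, 7.33, 7.10 and 7.47 in control and 7.55, 7.80, 7.66, 7.82 and 7.75 in E2f TKO arrays. It was higher in all 5 E2f TKO arrays than in any control, by 0.42 ± 0.10 (limma adjusted p = 0.0266 over all probe sets), so the probe sets of E2f1 disagree. Their position relative to the deleted exons was not analysed here. E2f TKO 1 had the highest T cell and enterocyte list means of the group. Xist was high in 1 of 4 control and 2 of 5 E2f TKO arrays. Below, values follow array number, 1 to 4 for control and 1 to 5 for E2f TKO.

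The group labelled as lacking E2f1 to E2f3 was set against control to see which crypt transcripts differ. With limma over all 18 arrays, 527 of 18193 genes passed an adjusted p of 0.05 (2.9%), 305 higher (1.68%) and 222 lower (1.22%). The median of the genes that rose was 0.63 and of those that fell -0.57, against 0.00 over all genes. The 4 control and 5 E2f TKO arrays did not overlap for 988 genes (5.43%), among them 263 of those that rose and 192 of those that fell. All 5 E2f TKO arrays carried the shift, the arrays labelled 2 and 5 included. Relative to the control mean, the genes that rose averaged 0.71, 0.73, 0.81, 0.89 and 0.69 in these arrays, and those that fell -0.85, -0.79, -0.84, -0.83 and -0.72. In single arrays, 458 to 519 of the 527 genes moved by at least 0.5 of their fitted difference, where control arrays gave 6 to 22. These genes were chosen in the same arrays, so the figures describe how evenly the shift is spread. Without the arrays labelled E2f TKO 2 and 5, 609 genes were higher (3.35%) and 713 lower (3.92%), and 461 of the 527 still passed.

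**Figure D1:**
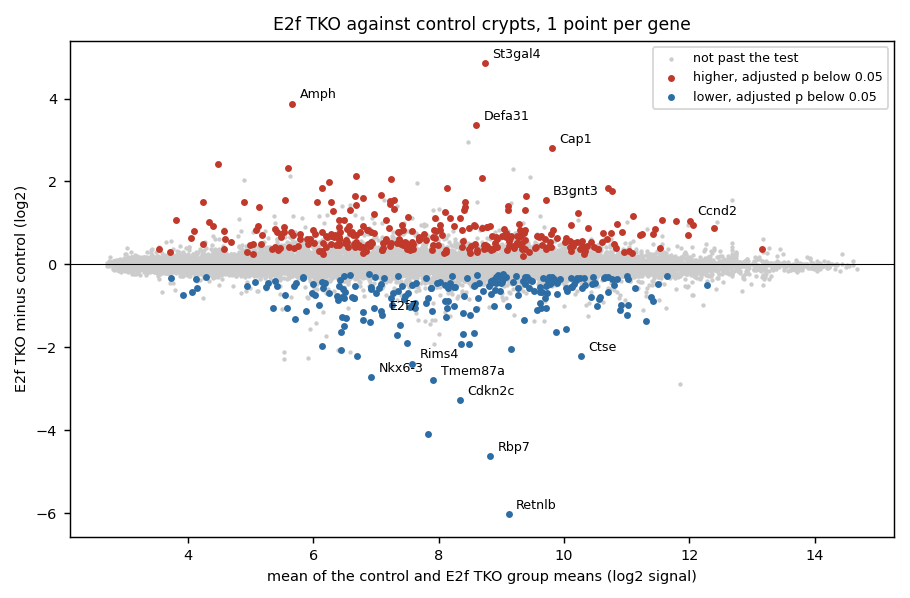
Difference between E2f TKO and control (vertical axis, log2) against the mean of both group means (horizontal axis, log2 signal), with 1 point for each of 18193 genes. The 305 genes higher and 222 lower at an adjusted p below 0.05 are coloured; the farthest are Retnlb, at -6.02, and St3gal4, at 4.85.

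The genes that fell furthest encode proteins of several cell types and include an inhibitor of the cell cycle. Cdkn2c (on chromosome 4) encodes p18INK4c, which blocks the cyclin D kinases CDK4 and CDK6. It read 9.66, 10.16, 10.23 and 9.90 in control arrays and 6.59, 6.95, 6.65, 6.40 and 6.97 in E2f TKO arrays. The groups lay far apart, and Cdkn2c fell by 3.27 ± 0.13 (standard error, limma adjusted p = 6.3e-11). Retnlb (on chromosome 16), a secreted product of goblet cells, read 12.30, 12.18, 12.17 and 11.86 in control arrays and 5.91, 6.06, 7.13, 6.35 and 5.11 in E2f TKO arrays. It went from among the brighter signals to the level of the array median, a fall of 6.02 ± 0.34 (adjusted p = 1.17e-08). Rbp7, a retinol-binding protein gene on chromosome 4, read 10.23, 11.13, 11.60 and 11.58 against 6.53, 5.49, 7.46, 7.42 and 5.64. Its lowest E2f TKO arrays were the ones labelled 2 and 5. AI506816, a transcript with no known role, read 10.18, 10.51, 9.09 and 9.71 against 5.39, 6.03, 5.75, 6.14 and 5.61.

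Next by size came Tmem87a, which encodes a Golgi membrane protein, and Nkx6-3, a homeobox factor. Tmem87a read 9.19 to 9.40 in control and 6.22 to 6.94 in E2f TKO arrays. Nkx6-3 read 8.26, 8.64, 7.83 and 8.41 in control arrays and 5.12, 5.40, 5.24, 5.22 and 6.83 in E2f TKO arrays, the highest being the array labelled 5. Rims4, of the presynaptic RIM family, read 8.37 to 9.19 in control and 6.2 to 6.47 in E2f TKO arrays. Ctse, the cathepsin E gene, read 11.15 to 11.58 against 8.43 to 10.14, with the smallest fall in the array labelled 5. The Ctse probe set ends in _s_at or _x_at, and with such probe sets left out Ctse read 0.09 (adjusted p = 0.89), so its probe sets disagree. Both mucosal mast cell chymases were among these genes. Mcpt2 read 8.19, 7.70, 7.21 and 8.09 against 5.80, 5.12, 5.97, 6.41 and 4.64, and Mcpt1 read 7.73, 7.49, 7.04 and 7.68 against 5.42, 4.95, 5.54, 6.15 and 5.06. No E2f TKO array reached a control array for either gene.

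The other members of the 20 largest falls lay between -1.97 and -1.48. Elobl, an elongin B-like gene, read 6.62 to 7.54 in control and 4.90 to 5.32 in E2f TKO arrays. Pyroxd2 (9.19 to 9.81 against 6.97 to 8.15) encodes a mitochondrial oxidoreductase, and Ocel1 (9.20 to 9.39 against 7.30 to 7.58) a protein with an occludin-like domain. Ocel1 had a spread of 0.09 in control and 0.10 in E2f TKO (SD, n = 4 and 5) around means of 9.32 and 7.41. Slc15a2, a peptide transporter gene, fell by 1.89 ± 0.34 (limma adjusted p = 0.00338), and Gdpd3, of the glycerophosphodiesterase family, by 1.67 ± 0.22 (adjusted p = 0.000281). Tap1, a gene of the peptide transporter that serves MHC class I, read 9.58, 9.31, 9.48 and 9.20 against 8.31, 7.65, 7.66, 7.58 and 7.46. H2-T18, a non-classical class I gene of the same chromosome 17, read 10.51 to 11.08 against 9.10 to 9.48. Its probe set ends in _x_at, and H2-T18 was not measured when such probe sets were left out. 0610005C13Rik was nearly constant in control arrays (10.65 to 10.71) and read 8.83 to 9.62 in E2f TKO arrays. Ttc30b, a gene of transport in cilia, and H2bc21, a histone H2B gene, were the weakest of this set. Ttc30b was at 6.74 in control 1 and at 8.51 to 8.75 in the other controls, against 6.30 to 6.64. H2bc21 read 4.6, 6.85, 5.33, 5.23 and 6.79 in E2f TKO arrays against 7.0 to 7.54, so the arrays labelled 2 and 5 lay just under control. The Ttc30b and H2bc21 calls were lost without 1 array (control 2, 3 or 4, E2f TKO 3 or 4, and for Ttc30b the array labelled 2, adjusted p 0.0516 to 0.13).

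Among the genes raised most, St3gal4, a sialyltransferase gene on chromosome 9, came first. It read 5.89, 6.31, 7.13 and 5.90 in control arrays and 12.69, 7.65, 12.04, 11.34 and 12.05 in E2f TKO arrays. The array labelled 2 was barely above control and the other 4 were far above. Amph, which encodes the endocytic protein amphiphysin, was at 3.66 to 3.81 in control arrays, near the bottom of the scale, and at 6.32, 8.57, 7.29, 7.54 and 8.30 in E2f TKO arrays. Defa31, which encodes an alpha-defensin peptide of Paneth cells, read 6.61 to 7.13 in control arrays and 11.43, 11.53, 10.22, 11.02 and 7.22 in E2f TKO arrays, the array labelled 5 being at the control level. Defensin genes are near-identical copies, so which of them this probe set reads is uncertain. Cap1, an actin regulator gene on chromosome 4, read 10.34, 7.45, 8.02 and 7.85 in control arrays, and 11.13 to 11.41 in E2f TKO arrays. Control 1 was nearer to the E2f TKO arrays than to the other controls.

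Genes of other glycan enzymes and of a mucin were also in the set. B3gnt3, an N-acetylglucosaminyltransferase gene, read 9.06, 8.87, 9.08 and 8.75 in control arrays and 10.74, 10.48, 10.37, 10.66 and 10.21 in E2f TKO arrays. It had the smallest p of the genes that rose most (1.55 ± 0.11, limma adjusted p = 1.42e-07). Galnt11, which starts O-linked chains, read 7.48 to 7.88 against 8.96 to 9.35. The membrane mucin gene Muc4 read 7.43, 5.95, 7.70 and 7.82 against 7.91, 9.59, 9.44, 9.24 and 9.14, so E2f TKO 1 stood just above control. The Muc4 call was lost without 1 array (control 1, 2 or 3, the array labelled 2, E2f TKO 3 or 4, adjusted p 0.0518 to 0.124) and without both arrays labelled 2 and 5 (adjusted p = 0.0725).

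Other genes raised most have unlike roles. Mep1a, the meprin alpha protease of the brush border, read 8.06 to 9.16 in control arrays and 11.39, 9.69, 10.17, 10.25 and 9.60 in E2f TKO arrays. Sqor, which oxidises sulfide in mitochondria, read 9.48 to 9.96 against 11.42 to 12.02. Iapp, the hormone gene of amylin, read 6.38, 5.62, 5.82 and 5.55 against 7.74, 7.37, 7.38, 7.62 and 7.29. For these 3 genes no E2f TKO array overlapped a control array. Tnfrsf14, the HVEM receptor gene, read 7.53, 5.62, 5.56 and 6.12 in control and 7.84 to 8.75 in E2f TKO arrays, with control 1 the nearest. Aspg, an asparaginase gene, was at 6.32 to 6.83 against 7.72 to 8.5, and Ncoa7, a nuclear receptor coactivator gene, at 6.36 to 6.85 against 7.77 to 8.52. D17H6S56E-5 read 9.73 to 10.07 against 10.18, 12.26, 11.82, 12.32 and 11.60, with E2f TKO 1 next to the controls. Spata5l1, Epdr1, Tmem184c, Tc2n, Glipr1 and Ccdc59 made up the 20, with differences of 1.55 (Ccdc59) to 2.41 (Spata5l1).

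**Figure D2:**
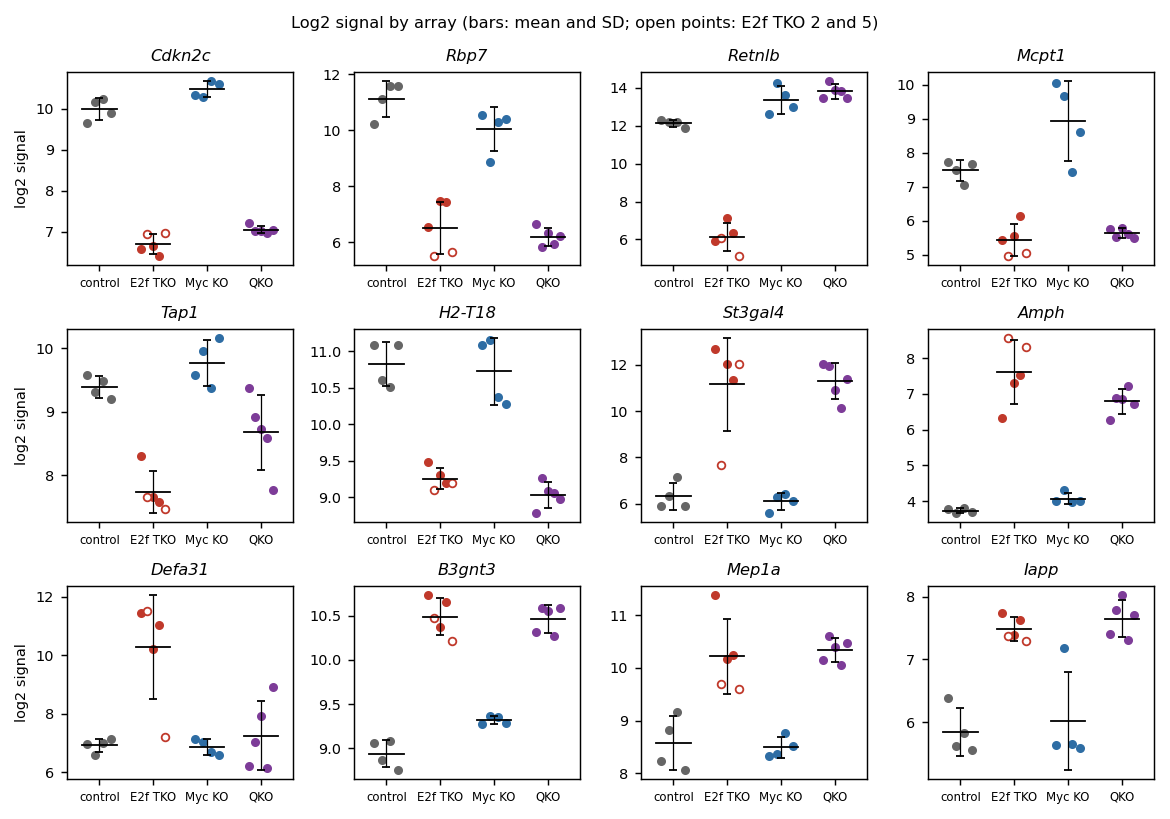
Log2 signal of 12 genes past the test in each of the 18 arrays, by group, with the mean and SD of each group; open points are the arrays labelled E2f TKO 2 and 5. All 5 E2f TKO arrays lie below the 4 control arrays for Cdkn2c, Rbp7, Retnlb, Mcpt1, Tap1 and H2-T18 and above them for the other 6 genes, though the array labelled 2 for St3gal4 and the array labelled 5 for Defa31 lie close to control.

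In the cell cycle, genes for the licensing of replication origins were the most frequent among those that rose, while the CDK inhibitor genes Cdkn2c and Cdkn2d (2 of 7 inhibitors) and the atypical E2f gene E2f7 fell. Some carry E2F-type letters within 250 bases before to 50 bases after the start of the gene. Of 23 cell cycle genes past the test, 18 had a promoter in the RefSeq table (GRCm38.p6), and 6 of these held TTTGGCGC, TTTCCCGC, TTTGCCGC or TTTCGCGC on either strand: E2f7, Cdc6, Cdt1, Mcm5, Hells and Fancg. The first 4 are shown, 5′ to 3′ on the gene's strand and each 300 bases long, as the one that fell and the 3 licensing genes among the 6. Capitals mark the motif letters, which read GCGGGAAA or GCGCCAAA where the motif is on the other strand. E2f7 is at chr10:110745189-110745488, Cdc6 at chr11:98907901-98908200, Cdt1 at chr8:122567765-122568064 and Mcm5 at chr8:75109259-75109558, all on the plus strand, and in Mcm5 a pair of motifs of opposite strand overlap.
E2f7: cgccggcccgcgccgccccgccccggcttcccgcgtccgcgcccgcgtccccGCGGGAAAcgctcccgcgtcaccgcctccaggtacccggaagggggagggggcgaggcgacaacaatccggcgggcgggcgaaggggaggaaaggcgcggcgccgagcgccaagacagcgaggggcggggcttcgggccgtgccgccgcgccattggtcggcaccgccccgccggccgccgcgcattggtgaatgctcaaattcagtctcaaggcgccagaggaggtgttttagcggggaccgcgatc
Cdc6: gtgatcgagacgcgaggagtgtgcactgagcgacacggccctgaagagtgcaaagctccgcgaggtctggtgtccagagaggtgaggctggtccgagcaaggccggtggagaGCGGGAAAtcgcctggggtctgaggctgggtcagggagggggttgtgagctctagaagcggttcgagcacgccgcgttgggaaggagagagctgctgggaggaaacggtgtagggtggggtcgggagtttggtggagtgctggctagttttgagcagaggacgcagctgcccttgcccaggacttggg
Cdt1: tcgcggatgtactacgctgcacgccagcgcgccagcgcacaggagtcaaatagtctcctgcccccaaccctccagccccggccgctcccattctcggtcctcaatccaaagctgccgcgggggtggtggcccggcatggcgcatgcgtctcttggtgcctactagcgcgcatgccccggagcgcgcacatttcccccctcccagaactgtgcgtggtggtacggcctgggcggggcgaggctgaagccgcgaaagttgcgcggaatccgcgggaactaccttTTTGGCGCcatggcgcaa
Mcm5: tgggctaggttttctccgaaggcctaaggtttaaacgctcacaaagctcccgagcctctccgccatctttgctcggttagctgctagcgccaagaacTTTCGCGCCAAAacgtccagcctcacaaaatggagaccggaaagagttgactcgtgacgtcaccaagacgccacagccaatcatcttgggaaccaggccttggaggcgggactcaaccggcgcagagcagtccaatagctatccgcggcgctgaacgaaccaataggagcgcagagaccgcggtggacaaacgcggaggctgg
The E2F letters were in 6.4% of 250 promoters of genes that rose, 5.71% of 175 of genes that fell and 3.8% of 14368 of all genes tested (genes with any promoter in the table). The replication and repair lists held them in 32.5% of 83 genes, and their members past the test in 41.7% of 12. A match is a description of letters and not of binding. Among all 32851 promoters in the table the share was 2.26%.

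Of 10 measured members of the E2f family, counting the DP partners, 0 rose and 1 fell with all arrays (median -0.11), and 0 rose and 3 fell without the arrays labelled 2 and 5 (median -0.18). E2f7, which encodes a repressor of E2F targets and is a target itself, read 7.56, 7.83, 7.84 and 7.66 in control arrays and 5.47, 7.07, 6.02, 6.92 and 6.96 in E2f TKO arrays. All 5 lay below control, by an average of 1.23 ± 0.25 (limma adjusted p = 0.0103), and its difference was -1.58 without the arrays labelled 2 and 5 (adjusted p = 0.00102). The others lower without those arrays were E2f3 (-0.55, limma adjusted p = 0.00121) and E2f8, the other atypical member (-0.66, adjusted p = 0.0429), against -0.15 and -0.36 with all arrays. The E2f3 signal is also what sets those arrays against their label, so its fall without them is not independent of leaving them out. The pocket proteins and the DREAM complex, which repress cell cycle genes in resting cells, had 0 of 11 past the test. Rbl1 (p107) read 9.33 to 9.43 against 9.57 to 9.70, without overlap but at adjusted p = 0.222.

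Of 7 CDK inhibitors 2 fell and 0 rose, beside 1.22% and 1.68% of all genes. Cdkn2d, which encodes p19INK4d of the same family as Cdkn2c, read 7.77, 8.04, 8.11 and 7.50 against 6.82, 7.30, 7.0, 6.86 and 7.14. It fell by 0.83 ± 0.14 (limma adjusted p = 0.00168). The other 5 inhibitors gave values from -0.41 to 0.38, none past the test. Of 10 G1 cyclins and kinases 1 rose and 1 fell. Ccnd2, the cyclin D2 gene, read 11.79, 10.99, 11.69 and 11.43 in control and 12.25, 12.15, 12.79, 12.71 and 12.74 in E2f TKO arrays. Ccne2, the cyclin E2 gene and a classical E2F target, read 7.17, 6.86, 6.94 and 7.25 against 5.67, 6.87, 5.82, 6.19 and 6.70. Its array labelled 2 lay within the controls. Its difference was -0.81 with all arrays and -1.17 without the arrays labelled 2 and 5, and its call was lost without control 1, 2, 3 or 4 or E2f TKO 1, 3 or 4 (adjusted p 0.054 to 0.127).

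Replication licensing, the loading of the MCM helicase onto origins, had 7 of 23 genes higher and 0 lower, with a median of 0.36. The shares over all genes were 1.68% higher and 1.22% lower. Cdc6, a loader of MCM, read 7.55, 7.69, 7.77 and 8.13 in control arrays and 8.34, 8.55, 8.97, 9.07 and 8.67 in E2f TKO arrays. Cdt1, the partner of CDC6, read 10.86, 11.14, 10.87 and 11.22 against 11.63, 11.66, 12.10, 12.17 and 11.82. Both were above every control in every E2f TKO array, and they rose by 0.93 ± 0.18 (limma adjusted p = 0.00621) and 0.86 ± 0.13 (adjusted p = 0.000947). The helicase subunits followed at a smaller size. Mcm2 read 10.36 to 10.73 against 11.01 to 11.73, Mcm4 10.10 to 10.48 against 10.69 to 11.34, and Mcm5 10.79 to 11.06 against 11.12 to 12.04. Gins2, of the active helicase, read 9.47 to 9.68 against 9.86 to 10.73, and Mcm10 was the seventh. For Mcm2, Mcm4, Mcm5 and Gins2, E2f TKO 4 was the highest and E2f TKO 1 the lowest of the 5. Without the arrays labelled 2 and 5 the list gave 8 higher, beside 3.35% of all genes, and a median of 0.37. The calls of these 4 genes were lost without 1 array (control 1 to 4, E2f TKO 3 or 4, adjusted p 0.0511 to 0.133).

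At the replication fork 3 of 28 genes rose and 0 fell, beside 1.68% and 1.22% of all genes, with a median of 0.20. Timeless, of the fork protection complex, read 8.43, 8.75, 8.48 and 8.84 in control and 9.05, 9.38, 9.75, 9.86 and 9.39 in E2f TKO arrays. Rfc2, of the clamp loader, read 10.22 to 10.42 against 10.71 to 11.17, and Rpa2, of the single-strand binding complex, 9.37 to 9.65 against 9.74 to 10.46. None of the 3 overlapped with control. Homologous recombination and the Fanconi pathway had 3 of 22 higher and 0 lower (median 0.16). Fancc was at 7.02 to 7.15 in control and 7.46 to 7.88 in E2f TKO arrays. Its call was lost when the mean of its probe sets was used (limma adjusted p = 0.0937). Rad54l was at 8.80 to 9.08 against 9.29 to 10.03, and Fancg at 6.77 to 7.04 against 7.05 to 7.43. Ung, which removes uracil from DNA, was the member past the test of 7 mismatch and uracil repair genes, and read 8.71, 9.15, 8.79 and 9.30 against 9.20, 9.82, 9.79, 9.98 and 9.89. Hells, a remodeller that helps DNA methylation, was the one of 10 methylation and Polycomb genes, at 9.19 to 9.64 against 9.83 to 10.49. Supply of deoxynucleotides (0 of 9) and checkpoint kinases (0 of 11) had no member past the test, with medians of 0.04 and 0.02, although both hold known E2F targets. Rrm1, of ribonucleotide reductase, read 10.38 to 10.81 against 10.36 to 11.26, and Tk1, the thymidine kinase gene, differed by -0.33 (adjusted p = 0.387). The Rpa2, Rad54l, Fancg, Ung and Hells calls were lost without control 1, 2 or 3 or E2f TKO 3 or 4 (adjusted p 0.0532 to 0.177 over the arrays that ended a call), and the Ung call without both arrays labelled 2 and 5 (adjusted p = 0.089).

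**Figure D3:**
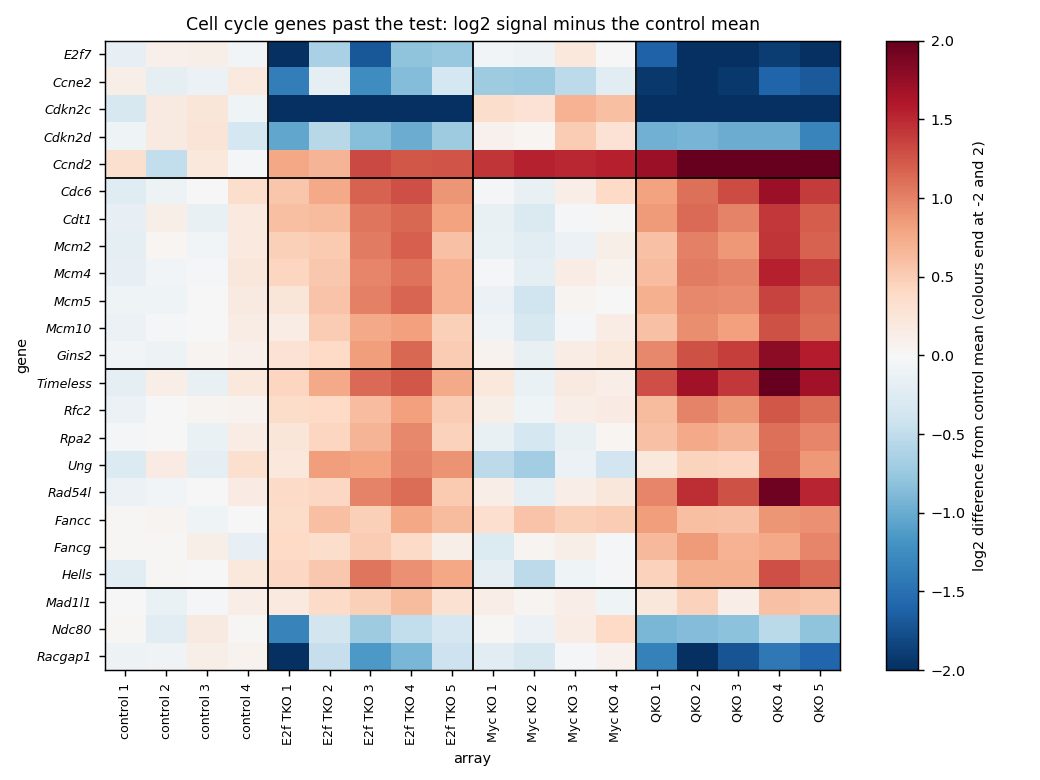
Log2 signal minus the control mean (colour) for 23 cell cycle genes past the test in each of the 18 arrays. Cdkn2c and Cdkn2d are lower and the licensing genes higher in all 5 E2f TKO arrays and in all 5 QKO arrays than the control mean, while Ccnd2 is also higher in Myc KO.

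Genes of mitosis mostly lay below control, but few passed the test and the arrays differed. Among 20 mitotic cyclin, Cdk1 and anaphase-promoting complex genes 0 passed and 19 were below control (median -0.31). The 25 spindle, kinesin and cytokinesis genes had 1 lower and 24 below control (median -0.48), and the 28 kinetochore genes 1 higher, 1 lower and 24 below control (median -0.28). Racgap1, needed for cytokinesis, read 9.5 to 9.72 in control and 7.50, 9.15, 8.46, 8.70 and 9.19 in E2f TKO arrays. Ndc80, of the outer kinetochore, read 7.45 to 7.86 against 6.34, 7.31, 6.97, 7.18 and 7.34, and Mad1l1, of the spindle checkpoint, 6.78 to 7.05 against 7.10 to 7.55. Of 15 condensin, cohesin and topoisomerase II genes 0 passed. Smc1a, a cohesin subunit gene, had the highest mean level of these over all 18 arrays. It read 10.84 to 10.93 against 10.38 to 11.18 (difference -0.06, limma adjusted p = 0.892). Top2a, next in the mean over all 18 arrays, read 11.29 to 11.54 against 9.36, 11.44, 10.36, 10.44 and 11.10 (difference -0.87, adjusted p = 0.135). E2f TKO 1 was the lowest of the 5 and the arrays labelled 2 and 5 the highest for both Racgap1 and Ndc80. The mean of the spindle list relative to control was -1.13, -0.03, -0.40, -0.31 and -0.15 in the 5 arrays. Without the arrays labelled 2 and 5, 7 cyclin and anaphase genes, 7 spindle genes, 9 kinetochore genes and 5 condensin and cohesin genes were lower, beside 3.92% of all genes, and 2 kinetochore genes (Mad1l1 and Zwint) were higher, beside 3.35%. Calls of Racgap1, Ndc80 and Mad1l1 were lost without control 1, 3 or 4 or E2f TKO 3 or 4, among others (adjusted p 0.0569 to 0.16). CHR letters (TTTGAA or TTCGAA), bound by complexes that control mitotic genes, were in the promoters of 61.3% of 75 genes of these 4 lists and 17.5% of all genes tested, with E2F letters in 12%.

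Lists of arrest and cell death had no member past the test with all arrays. Of 24 p53 targets 0 passed, with a median of 0.12, and of 14 Bcl2 family and caspase genes 0 passed, with a median of 0.05. Without the arrays labelled 2 and 5, 1 p53 target was higher (list median 0.22), beside 3.35% of all genes. In QKO against Myc KO 4 p53 targets were higher and 1 lower (median 0.15), beside 4.6% and 3.09% of all genes. Perp, a p53 target at desmosomes, read 10.86 to 11.08 in control and 10.94 to 11.31 in E2f TKO arrays.

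Of 11 hormone genes of enteroendocrine cells, 3 rose and 0 fell, beside 1.68% and 1.22% of all genes. Their median was 0.35, with 10 of 11 above control. Of the 3 calls that of Gip was kept without any 1 array. Gip, the hormone of K cells, read 11.50, 11.64, 11.48 and 11.70 in control and 12.67, 12.73, 12.34, 12.38 and 12.54 in E2f TKO arrays. Nts, the neurotensin gene, read 5.38, 5.44, 5.46 and 5.83 against 8.09, 6.45, 7.50, 7.07 and 6.03, and Sst, the somatostatin gene, 9.46 to 9.85 against 10.06 to 10.60. None of the 3 overlapped between groups, and Nts was lowest in the arrays labelled 2 and 5. Transcription factors of the lineage moved both ways, 2 of 12 higher and 2 lower. Neurod1, a driver of the lineage, read 6.60 to 7.01 against 7.26 to 7.57, and Isl1 5.84 to 6.22 against 6.24 to 7.18. Pdx1, of the duodenum, read 9.22, 9.39, 9.10 and 9.10 against 8.18, 8.56, 8.72, 8.51 and 8.97, falling with Nkx6-3. Of 14 granule and prohormone processing genes 1 rose, Pam, which amidates peptide hormones, at 4.58 to 5.01 against 5.09 to 5.5. The pan-endocrine marker Chga read 8.80 to 9.68 against 9.72 to 10.22 (difference 0.62 ± 0.18, limma adjusted p = 0.0785). The Nts, Sst, Pdx1, Isl1 and Pam calls were lost without 1 of control 1 to 4 or of the E2f TKO arrays 2 to 5 (adjusted p 0.0518 to 0.118), and the Sst and Isl1 calls without both arrays labelled 2 and 5 (adjusted p = 0.0658 and 0.0822).

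Goblet cells had 1 of 17 genes higher and 1 lower, beside 1.68% and 1.22% of all genes, with a median of 0.04. Beside the fall of Retnlb, Guca2a, the guanylin gene, read 12.22, 12.04, 11.62 and 11.95 in control and 13.04, 12.86, 12.71, 12.82 and 12.75 in E2f TKO arrays. The defining goblet markers overlapped between the groups: Muc2 at 12.41 to 12.79 against 12.20 to 13.11, Tff3 at 13.97 to 14.20 against 13.81 to 14.21 and Clca1 at 12.15 to 12.78 against 12.07 to 12.70. Paneth cells had Defa31 as the one of 13 genes past the test, and their defining gene Lyz1 read 14.54 to 14.62 against 14.54 to 14.70. Tuft cells, the chemosensory lineage, had 0 of 15 past the test and a median of 0.12. Mep1a was the one of 17 brush border and hydrolase genes, and 0 of 16 lipid absorption genes passed. The brush border list mean followed the arrays more than the groups: relative to the control mean it was 0.35, -0.03, 0.03 and -0.36 in control and 1.25, -0.35, 0.30, -0.15 and -0.57 in E2f TKO arrays.

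Stem cell markers had 1 of 18 higher and 0 lower, Wnt targets 0 of 17 and the Notch pathway and secretory choice 0 of 15. Prom1, a membrane protein of stem and progenitor cells, read 10.93, 11.06, 11.41 and 11.65 in control and 11.48, 12.59, 12.52, 12.66 and 12.32 in E2f TKO arrays. E2f TKO 1 was within the controls. Lgr5, the Wnt-driven receptor of crypt base stem cells, read 7.17 to 7.40 against 7.35, 8.75, 7.78, 8.11 and 9.30. Its highest values were those of the arrays labelled 5 and 2, and its difference of 0.98 ± 0.36 did not pass (limma adjusted p = 0.197). Olfm4 (12.99 to 13.21 against 12.49 to 13.43), Ascl2 (8.48 to 8.80 against 8.05 to 9.17) and Smoc2 (10.58 to 10.97 against 9.04 to 11.29) all overlapped, with E2f TKO 1 lowest for each.

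**Figure D4:**
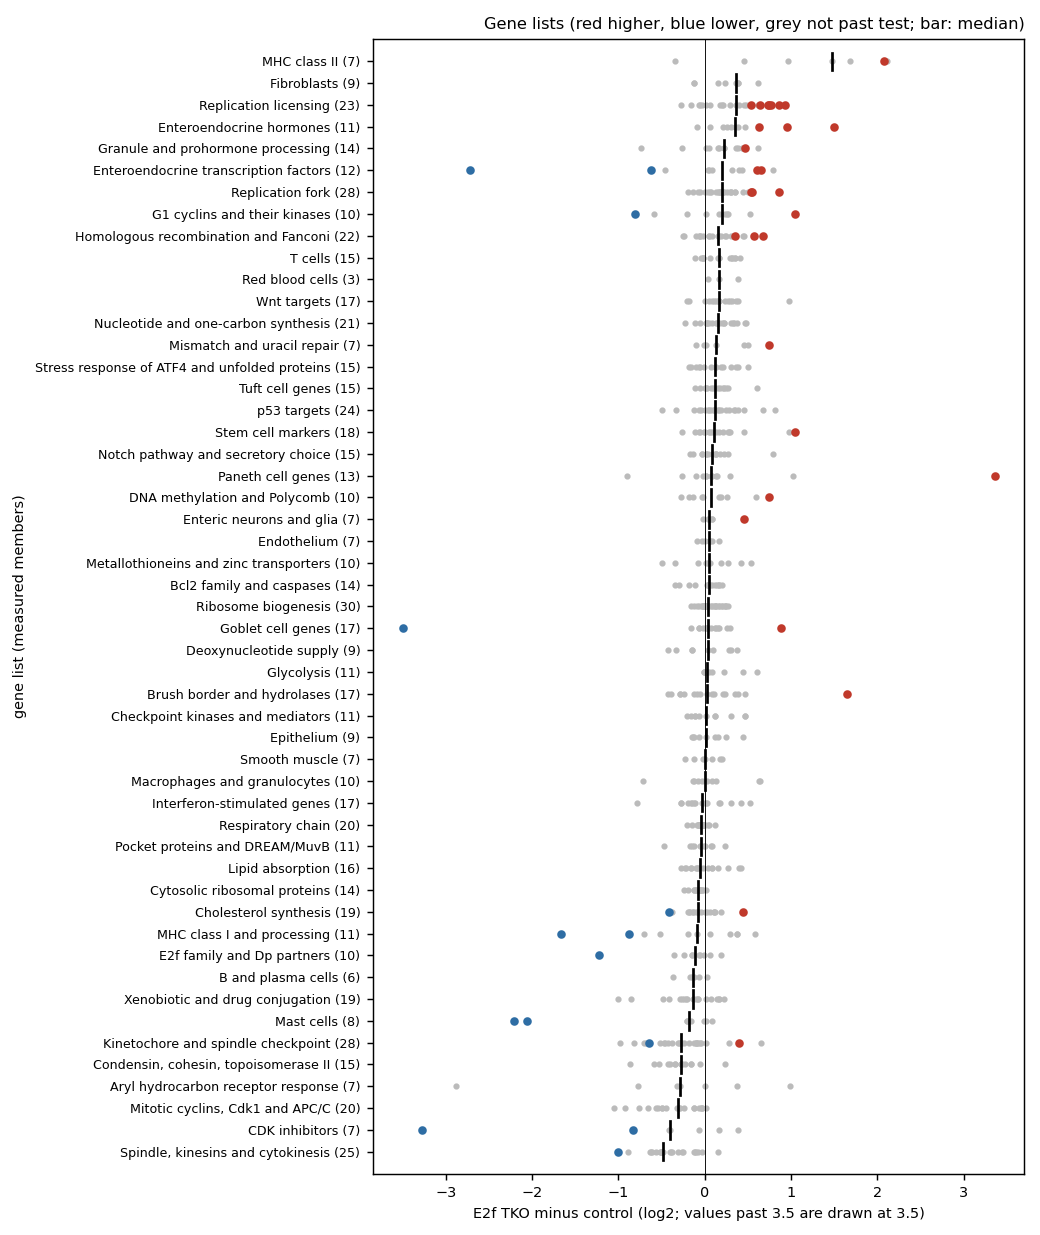
Difference between E2f TKO and control (log2) for each measured member of 51 gene lists, 1 row a list, with the number measured in parentheses; bars are list medians. Red and blue points passed the test; the licensing list has 7 red points and 18 of 23 above 0, the mitotic lists are mostly grey and left of 0, and Retnlb, at -6.02, is drawn at the edge.

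In MHC class I and antigen processing 2 of 11 fell and 0 rose (median -0.09), beside 1.22% and 1.68% of all genes. Psmb9, an immunoproteasome subunit gene that neighbours Tap1, read 12.00, 11.58, 11.96 and 11.89 in control and 11.22, 10.84, 10.94, 11.11 and 10.79 in E2f TKO arrays. It fell by 0.88 ± 0.12 (limma adjusted p = 0.000532), while 0 of 17 interferon-stimulated genes passed, with a median of -0.03. MHC class II had 1 of 7 higher, with a median of 1.47. H2-Eb1, a class II beta chain gene, read 7.63, 8.12, 7.68 and 7.20 against 11.90, 9.5, 9.77, 10.03 and 7.47. E2f TKO 1 was far above control and the array labelled 5 at its level. Its call was lost without 1 of control 1 to 4, the array labelled 2 or E2f TKO 3 or 4 (limma adjusted p 0.0622 to 0.15). Without the arrays labelled 2 and 5 the class II list had 5 of 7 higher, beside 3.35% of all genes, and a median of 2.34.

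Mast cell genes had 2 of 8 lower, beside 1.22% of all genes. Only the chymases Mcpt1 and Mcpt2 passed, and the other 6 ranged from -0.21 to 0.08. Among these were Cpa3 (5.61 to 5.84 against 5.32 to 5.71) and Kit (7.49 to 7.95 against 7.32 to 8.08). Cpa3 lay below the array medians, where signals cannot be separated from background. In QKO against Myc KO 5 of the 8 mast cell genes were lower (median -0.63), beside 3.09% of all genes. T cell genes (0 of 15), B and plasma cell genes (0 of 6), macrophage and granulocyte genes (0 of 10), fibroblast genes (0 of 9), smooth muscle genes (0 of 7) and endothelial genes (0 of 7) had no call. S100b, a glial marker, was the one of 7 neuron and glia genes past the test, at 5.46 to 5.67 against 5.78 to 6.22, a level below the array medians or close to them. Its call was lost without control 1, 2, 3 or 4 or E2f TKO 1, 3 or 5 (adjusted p 0.0511 to 0.105). The mean of the T cell list relative to control was 0.81 in control 1 and -0.35 to -0.17 in the other controls, and 1.13, -0.48, 0.26, 0.59 and -0.71 in E2f TKO arrays. Gzma, a granzyme of intraepithelial lymphocytes, read 8.59 to 11.41 in control and 12.39, 7.91, 10.52, 10.80 and 7.51 in E2f TKO arrays. Among the E2f TKO arrays the MHC class II list mean was likewise highest in E2f TKO 1 (2.81) and lowest in the array labelled 5 (-0.51), and it was -0.57 to 0.55 in control arrays. The part of T cell content in that result was not tested.

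Growth and metabolism lists were near 0. Ribosome biogenesis (0 of 30, median 0.04), cytosolic ribosomal proteins (0 of 14, median -0.07), nucleotide and one-carbon synthesis (0 of 21, median 0.15), glycolysis (0 of 11, median 0.03) and the respiratory chain (0 of 20, median -0.04) had no member past the test. Ncl, the nucleolin gene, read 12.91 to 13.16 in control and 12.60 to 13.22 in E2f TKO arrays. Myc itself read 9.69 to 10.30 against 9.99 to 10.66 (difference 0.38, adjusted p = 0.237). Of 19 cholesterol synthesis genes Nsdhl rose by 0.44 ± 0.10 and Hsd17b7 fell by 0.41 ± 0.10 (limma adjusted p = 0.0235 and 0.0312), and both calls were lost without control 2 or 4 or E2f TKO 3 or 4 (adjusted p 0.0609 to 0.108). Xenobiotic and conjugation genes had 0 of 19 past the test, and their list mean was -1.07 and -0.88 in the arrays labelled 2 and 5, against 0.12 to 0.76 in the other E2f TKO arrays.

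By the labels, the same loss of E2f1 to E2f3 was made on a Myc KO background. QKO minus Myc KO thus repeats the comparison in 9 arrays that share none with it. Both contrasts were taken from the same fit of all arrays, and each gene had the same residual variance in both. Calls shared by the contrasts are therefore not fully independent. In QKO minus Myc KO 1398 genes passed (7.68%), 836 higher (4.6%) and 562 lower (3.09%). Of the 527 genes of E2f TKO, 309 passed in the same direction, 192 higher and 117 lower, and 0 in the opposite one. That is 58.6% of the 527 and 22.1% of the 1398. In sign alone 506 of the 527 were alike and 21 opposite. These 527 genes are not independent replicates. Their differences on both backgrounds had a Pearson correlation of 0.81 and a Spearman correlation of 0.86. Over all genes tested the correlations were lower, at 0.64 (Pearson) and 0.49 (Spearman). For the 527 genes the median size was 0.62 with Myc present and 0.47, signed in the same direction, without it. The genes were chosen for passing with Myc present, which favours the larger size there. These medians therefore do not show which background had the stronger effect. Without the arrays labelled E2f TKO 2 and 5, 615 of 1322 genes passed in the same direction and 4 in the opposite one.

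The genes with the smallest p on both backgrounds were Cdkn2c, Adat2, B3gnt3, Ocel1, Rims4, Smim8, Zfp868 and Epdr1. Cdkn2c fell by 3.42 ± 0.13 in QKO against Myc KO (limma adjusted p = 2.98e-11), to a mean of 7.05 ± 0.09 (SD, n = 5) from 10.47 ± 0.19 (n = 4). Adat2, of the tRNA adenosine deaminase, read 9.11 ± 0.17 in control, 7.91 ± 0.23 in E2f TKO, 8.90 ± 0.07 in Myc KO and 7.66 ± 0.10 in QKO (SD). The zinc finger gene Zfp868 read 7.76 ± 0.16, 6.77 ± 0.08, 7.43 ± 0.05 and 6.51 ± 0.23 in the same order. Smim8, a small membrane protein gene, rose by 0.69 ± 0.07 on each background. The licensing list had 15 of 23 higher in QKO against Myc KO (median 0.74), beside 4.6% of all genes. The fork list had 15 of 28 higher there (median 0.49). For the mitotic cyclin and spindle lists 10 of 20 and 14 of 25 were lower (medians -0.59 and -0.72), beside 3.09% of all genes. E2f7 (-2.02), Cdkn2d (-1.27), Mcpt1 (-3.31) and Mcpt2 (-3.37) also fell there, and Gip (0.88) rose. For none of the genes just named did the difference between backgrounds pass the test.

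That difference itself, the interaction, passed for 10 genes (0.055%). Retnlb differed most. It read 12.59, 14.23, 13.61 and 12.97 in Myc KO arrays and 13.44 to 14.37 in QKO arrays, so it was high without Myc whether or not E2f1 to E2f3 were present, and low only in the E2f TKO arrays (interaction 6.47, limma adjusted p = 2.05e-06). Elobl was low in all 3 deleted groups, with means of 5.16 in E2f TKO, 5.55 in Myc KO and 5.48 in QKO against 7.13 in control. Scpep1, a serine carboxypeptidase gene, had means of 11.45, 10.35, 10.97 and 11.48 in control, E2f TKO, Myc KO and QKO. Amacr (peroxisomal fatty acid oxidation), Cebpb (a bZIP factor), Cybrd1 (an iron reductase) and Rims2 (a presynaptic gene) did not pass in E2f TKO and did in QKO against Myc KO. Cap1, Ndufs5 and 9930104L06Rik lie within 20 Mb of E2f2 on chromosome 4, and Cebpb lies within 20 Mb of E2f1 on chromosome 2. Defa31, AI506816, Nkx6-3 and Slc15a2 changed in E2f TKO and did not pass in QKO against Myc KO (0.39, -1.46, -0.86 and -0.24), but their interactions did not pass either.

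**Figure D5:**
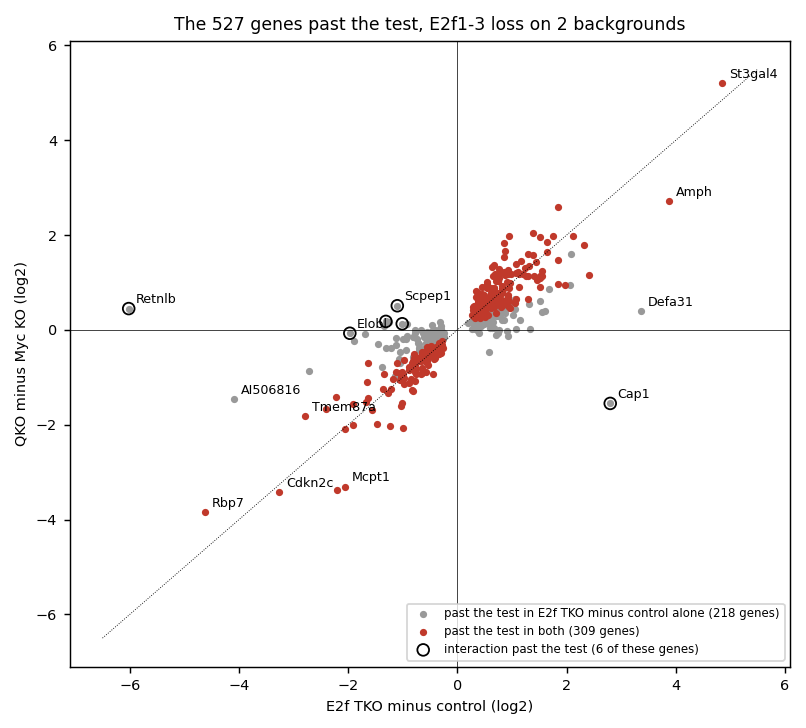
Difference made by E2f1-3 loss with Myc deleted (vertical axis, QKO minus Myc KO, log2) against the difference with Myc present (horizontal axis, E2f TKO minus control, log2) for the 527 genes past the test in the latter. The 309 red genes passed in both; the dotted line marks equal values, and Retnlb (-6.02 and 0.45) and Cap1 (2.80 and -1.55) lie farthest from it.

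Genes past the test lay on each of chromosomes 1 to 19 and on X. Within 20 Mb of E2f2 17 of 547 genes rose and 14 fell, or 5.67%, against 3.59% of 390 near E2f1, 2.05% of 244 near E2f3 and 2.81% of 16851 elsewhere. Chromosomes 4 and 17 had the highest shares, at 5.15% and 5.04%. Rbp7, Cap1, Tnfrsf14, Rpa2 and Guca2a are among the genes near E2f2, Rims4 is near E2f1, and Amph and Epdr1 are near E2f3. Cdkn2c lies 26.5 Mb from E2f2, outside that window. In 10 Mb windows, the most calls were in 2 windows of chromosome 17, with 15 of 202 genes (Tap1, Psmb9, H2-Eb1 and D17H6S56E-5 among them) and 14 of 217, and 1 window of chromosome 8 had 13 of 113 (11.5%), with B3gnt3, Ocel1, Tmem184c and Mcm5. In that window B3gnt3 rose and Ocel1 fell. Without genes near the deleted loci 477 genes passed and 281 of them also passed in the same direction on the Myc KO background (58.9%).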

How the data were processed

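Biotin-labelled RNA of 18 crypt samples was read on arrays of 45101 probe sets, per the labels and the table. The authors deposited log2 signals, with the scale read from the values (2.29 to 14.81), and their normalization is not given in the sources used here. Values were used as deposited, since array medians differed by less than 0.2, and pairs of arrays correlated at 0.973 to 0.996. The number of arrays limits the precision. Probe sets with 1 gene symbol in the platform annotation (34945) were kept, 64 control probe sets were left out, and 9010 genes had several. Each gene was represented by 1 of them, the brightest on average across the 18 arrays. Entrez numbers placed 18032 of 18193 genes on RefSeq's GRCm38.p6, which gave chromosomes, neighbours and promoters.

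The test was two-sided, from limma 3.58.1 (lmFit, contrasts.fit and eBayes in R 4.3.3), with 4 group means fitted to the 18 arrays at once. P-values were adjusted after Benjamini and Hochberg over 18193 genes, with a threshold of 0.05. Contrasts were E2f TKO minus control, QKO minus Myc KO and their difference, the interaction. The members and gene lists were chosen with earlier results of these data known, and lists are described by counts and medians. Named genes are the deleted ones, the 20 largest rises and 20 largest falls among genes past the test whose arrays do not overlap, up to 6 members past the test of each list by smallest p (or the 2 highest in level), cell type markers, and the 8 genes with the smallest larger p on both backgrounds. Names outside that rule (genes of the interaction, Myc, Xist and Mcm10) were chosen after their values were seen. The alternatives changed the normalization (quantile), the genes (those above the median level), the probe sets (their mean per gene, or none with IDs ending in _s_at or _x_at), the arrays (both groups fitted alone, each array left out in turn) and the model (replicate number as block, trended robust eBayes, weights for arrays, Xist as covariate). Leaving out the arrays labelled E2f TKO 2 and 5, or genes within 20 Mb of a deleted gene, was chosen after seeing the data. Same-numbered control and E2f TKO arrays had deviations that correlated at 0.29, 0.25, -0.04 and 0.20. The highest correlation of each control with an E2f TKO array of another number was 0.15, 0.22, 0.06 and 0.22. The values do not settle whether equal numbers were processed together. The labels name no pairs, and the numbers were not taken as pairs in the main fit. Scripts were tested on simulated data, with tables handled by version 1.17.8 of the data.table package and figures drawn with matplotlib 3.10.9 in Python 3.11.15.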

Additional observations from a re-analysis of the deposited data

Results flagged for a closer look

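Of 162 groups of arrays examined for the genes named (81 genes in 2 groups each), 11 (6.79%) held a sample far from the others by Dixon's ratio, which chance gives in about 1 group in 20, and 8 of the 11 were E2f TKO 1. In E2f TKO 1, Cap1 read 11.41 (others 11.13 to 11.20), Sqor 12.02 (11.42 to 11.59), Muc4 7.91 (9.14 to 9.59) and Tap1 8.31 (7.46 to 7.66). In the same array 0610005C13Rik read 9.62 (8.83 to 9.03), Ung 9.20 (9.79 to 9.98), Prom1 11.48 (12.32 to 12.66) and Pam 5.5 (5.09 to 5.20). The array labelled E2f TKO 2 read 7.65 for St3gal4 (11.34 to 12.69) and the array labelled E2f TKO 5 read 6.83 for Nkx6-3 (5.12 to 5.40). Control 1 read 6.74 for Ttc30b, with the other controls at 8.51 to 8.75.

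The effect of E2f1-3 loss differed between the Myc KO background and the background with Myc, by the interaction in limma, for 10 genes. The difference (loss without Myc minus loss with Myc, log2) was positive for Retnlb (6.47), Elobl (1.90), Scpep1 (1.61), 9930104L06Rik (1.5), Rims2 (1.34), Ndufs5 (1.14) and Cybrd1 (0.72). It was negative for Cap1 (-4.34), Amacr (-1.42) and Cebpb (-0.53). Adjusted p ran from 2.05e-06 (Retnlb) to 0.0484 (Cebpb and Cybrd1).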

How the results depend on the processing

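Of 78 named genes past the test, 46 kept their direction and their side of the threshold under every alternative run, and 32 lost the call under at least 1, 25 of them without 1 array. Only Ctse changed sign, to 0.09 without _s_at and _x_at probe sets. The reported counts were 527 genes past the test, 305 higher, 222 lower and 309 in the same direction on the Myc KO background. A fit of the 2 groups alone gave 253 (152 and 101) and holds no Myc KO arrays. In that fit 27 of the 78 named genes lost the call. Among them were E2f7 (limma adjusted p = 0.105), Prom1 (0.0792), Defa31 (0.0743), Mep1a (0.0636) and D17H6S56E-5 (0.0557). Array weights, which gave E2f TKO 1 the lowest weight (0.26), gave 1356 (735 and 621, 819 on both backgrounds). Leaving out the arrays labelled E2f TKO 2 and 5 gave 1322 (609 and 713, 615 on both). Leaving out 1 array at a time gave 277 to 830 in all, 159 to 528 higher, 118 to 302 lower, 175 to 502 on both backgrounds and 6 to 12 interaction genes. Leaving out control 2, 3 or 4 gave 319, 277 and 323 in all, and leaving out E2f TKO 1, 3 or 4 gave 830, 330 and 345. With control 1 left out, 202 genes were higher. Keeping only genes above the median level, which tests fewer genes, gave 6 interaction genes. The replicate number as a replicate block gave 653 genes, 475 of them among the 527. The other alternatives for these counts stayed within 1.5 times the reported ones, and the cause of the shifts was not tested. Low signals are not told apart from background, which limits falls such as that of Retnlb to a lower bound.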

Other observations

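Of the 31 genes past the test within 20 Mb of E2f2, control 1 was the control array nearest to the E2f TKO arrays for 22 (71.0%). It was the nearest for 166 of the 477 genes past the test elsewhere (34.8%), for 3 of 14 near E2f1 and for 0 of 5 near E2f3. Cap1, whose product regulates actin, read 10.34 in control 1 and 7.45 to 8.02 in the other controls, and 10.64, 10.90, 8.83 and 8.74 in the 4 Myc KO arrays, while the E2f TKO arrays read 11.13 to 11.41 and the QKO arrays 7.66 to 8.65. Ndufs5, of respiratory complex I, read 10.70 in control 1 and 11.09 to 11.21 in the others, 10.61, 10.69, 11.04 and 11.09 in Myc KO, 9.85 to 10.12 in E2f TKO and 10.86 to 11.21 in QKO arrays. The transcript 9930104L06Rik read 5.95 in control 1 and 6.44 to 6.55 in the others, 5.95, 6.04, 6.30 and 6.42 in Myc KO, 4.81 to 5.24 in E2f TKO and 6.22 to 6.45 in QKO arrays. In all 3 genes control 1 and the first pair of Myc KO arrays lay on the E2f TKO side of their own groups. These genes were picked after their values were seen, and no test was run on this count.

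For Retnlb the 4 groups had means of 12.13, 6.11, 13.35 and 13.80 in control, E2f TKO, Myc KO and QKO, the E2f TKO group being the low one in all of its 5 arrays, those labelled 2 and 5 included (6.06 and 5.11). Its goblet cell neighbours on the list did not share the fall: apart from Retnlb and Guca2a, none of the 17 goblet genes passed the test.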
